A study of Homo sapiens with 6 samples.

Results

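The genes described here are 40 human genes that act late in the cell cycle, from the G2 phase through mitosis. They were chosen by name, with earlier results of these data known. They comprise the engine that drives entry into mitosis, the mitotic kinases, the spindle checkpoint and the anaphase trigger, centromere proteins, spindle motors, and a few chromosome proteins with the transcription factor FOXM1. The members were represented by 82 probe sets of the 54613 on the array that are not controls, counting only probe sets annotated to 1 gene. Of these 82 probe sets, 80 passed the filter on low values, and every one of the 40 genes kept at least 1 tested probe set. Over the whole array 19775 genes had a probe set naming 1 gene, and 13630 of them were tested.

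Transcript levels came from Affymetrix expression arrays of 1 colour, with 3 arrays of a Fry clone and 3 of parental cells. The Fry clone samples came from a single stable line, called 231wCFry in the labels, made from MDA-MB-231 by transfection with a cDNA of rat Fry in its wild-type (Cop strain) form and selection with puromycin. That line was picked for a Fry level near that of MCF10A, a non-transformed mammary epithelial line. The parental samples were MDA-MB-231, an established human breast cancer line of mesenchymal character, neither transfected nor selected. The labels name no vector-only clone, so the transgene, the selection and the choice of 1 clone cannot be told apart. Both lines were grown in the same medium, and RNA was taken below full confluence. The design text says that the samples of a line differed in passage number, without giving it for any sample. Since no separate cultures are named, the p-values measure the spread between these samples, which may be partly technical.

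Cyclin-dependent kinase 1 (CDK1), bound to cyclin A or cyclin B, starts mitosis once CDC25 phosphatases remove inhibitory phosphates from it. Polo and Aurora kinases then build the spindle, the spindle checkpoint holds the anaphase-promoting complex inactive until kinetochores are attached, and CDC20 afterwards turns that ligase on cyclin B and securin. Most of these genes are transcribed mainly in G2 and mitosis and are kept silent earlier by the DREAM complex, which binds the cell-cycle homology region (CHR) of their promoters, while B-MYB, FOXM1 and the CCAAT-binding factor NF-Y act on them later.

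The arrays shared a common mean signal through the authors' scaling, and correlations of log2 signals lay between 0.994 and 0.996 within a group and between 0.921 and 0.924 across groups. The labels call both lines breast epithelial, and the Fry clone arrays went against that for most of the simple epithelium markers examined. Of 6 simple epithelium markers, 5 were lower in the Fry clone and 1 did not pass the test, and their summed signal was 1690 to 1855 on Fry clone arrays, against 7529.5 to 8244 on parental arrays. KRT19 read at or below the level of bacterial controls on all 3 Fry clone arrays. KRT18 was lower but stayed bright, averaging 1507 in the Fry clone and 2992 in parental cells. CDH1, the marker that did not pass, was dim in both lines, at 6.7 in the Fry clone and 9.7 in parental cells. Of 7 melanocyte and neural crest markers, 6 were higher in the Fry clone and 1 did not pass, with summed signals of 5005 to 5470.2 in the Fry clone, against 385 to 469 in parental cells. SOX10, S100B and MLANA were at or below the control level on all parental arrays, whereas SOX10 averaged 1395 in the Fry clone. S100B, MITF and ERBB3 averaged 1770, 1129 and 816 there. The pigment genes were dim: MLANA and TYR were called higher but averaged only 35.5 and 25.5 in the Fry clone. PMEL, the marker that did not pass, averaged 5.2 in the Fry clone and 10.8 in parental cells. The 4 mesenchymal markers gave sums of 7935 to 9480.4 in the Fry clone and 6371 to 6940.5 in parental cells, with 2 higher, 1 lower and 1 not passing. The summed signal of 3 leukocyte markers was 2.7 to 4.7 in the Fry clone and 17.8 to 22.4 in parental cells. That of 4 endothelial markers was 14.9 to 21.1 in the Fry clone and 177 to 288 in parental cells. Only 2 of these 4 were tested, and both were lower in the Fry clone. Most of the parental sum was 1 gene, PECAM1, which averaged 210 in parental cells and 9.2 in the Fry clone. The part of this difference in cell identity in the results on mitotic genes was not tested. As a measure of RNA integrity, the GAPDH controls had 3' over 5' ratios of 1.24 to 1.33 on Fry clone arrays and 1.36 to 1.39 on parental arrays, without overlap. Those of the beta-actin controls were 2.45 to 2.65 on Fry clone arrays and 2.59 to 3.004 on parental arrays, and overlapped. The part of RNA integrity in the results was not tested either.

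Most of these mitotic genes had lower signals in the Fry clone, by modest amounts. Of the 40 genes, 24 fell, 4 rose (CCNB2, PLK1, TTK and HMMR) and 12 did not pass the test (limma, adjusted p under 0.05 over all tested probe sets). The same rule called 33.1% of all tested genes lower and 34.1% higher in the Fry clone, so the members' 60% lower stood above that background and their 10% higher stood below it. The median log2 change of the members was -0.34, against 0.01 over all tested genes, where a log2 change is the difference in mean log2(signal + 16), Fry clone minus parental. By the brightest probe set large changes were few: 12.5% of the members moved by at least 1 on this scale, compared with 23.2% of all tested genes. Over probe sets the shares were closer, at 16.25% for members and 18.8% for all tested. The median absolute change was 0.39 in members and 0.48 in all tested genes, but 0.60 and 0.42 over probe sets. The size of the members' changes thus depended on the probe sets used. When probe sets of the types that may bind several transcripts were left out, 30 members could be measured, of which 20 fell and 4 rose, and the median was -0.54. In these bulk samples fewer cells in G2 and mitosis and less RNA in each such cell cannot be told apart.

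The size of the shift was compared array by array. Set against the parental mean of each gene, the median deviation of the 40 genes was -0.35, -0.42 and -0.28 on the 3 Fry clone arrays, and 0.02, 0.07 and -0.08 on the 3 parental arrays. The number of members below their parental mean was 30, 30 and 28 of 40 on the Fry clone arrays, and 18, 11 and 29 of 40 on parental replicates 1, 2 and 3, so that this count did not separate the groups, with parental replicate 3 within the Fry clone range. The signals of the 2 groups did not overlap for 31 members, with the Fry clone below in 27 and above in 4. That is 77.5% of the members, close to the 73.1% of all tested genes whose groups did not overlap, so separation alone does not set these genes apart. By direction, the Fry clone lay below without overlap in 4921 of the 13630 tested genes and above in 5049. The members were bright, with a median signal of 1021 over all arrays and a range of 17.3 to 3235, against a median of 222 for all tested genes. Replicates were close, with a median SD of 0.08 in the Fry clone and 0.10 in parental cells on the log2 scale.

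**Figure D1:**
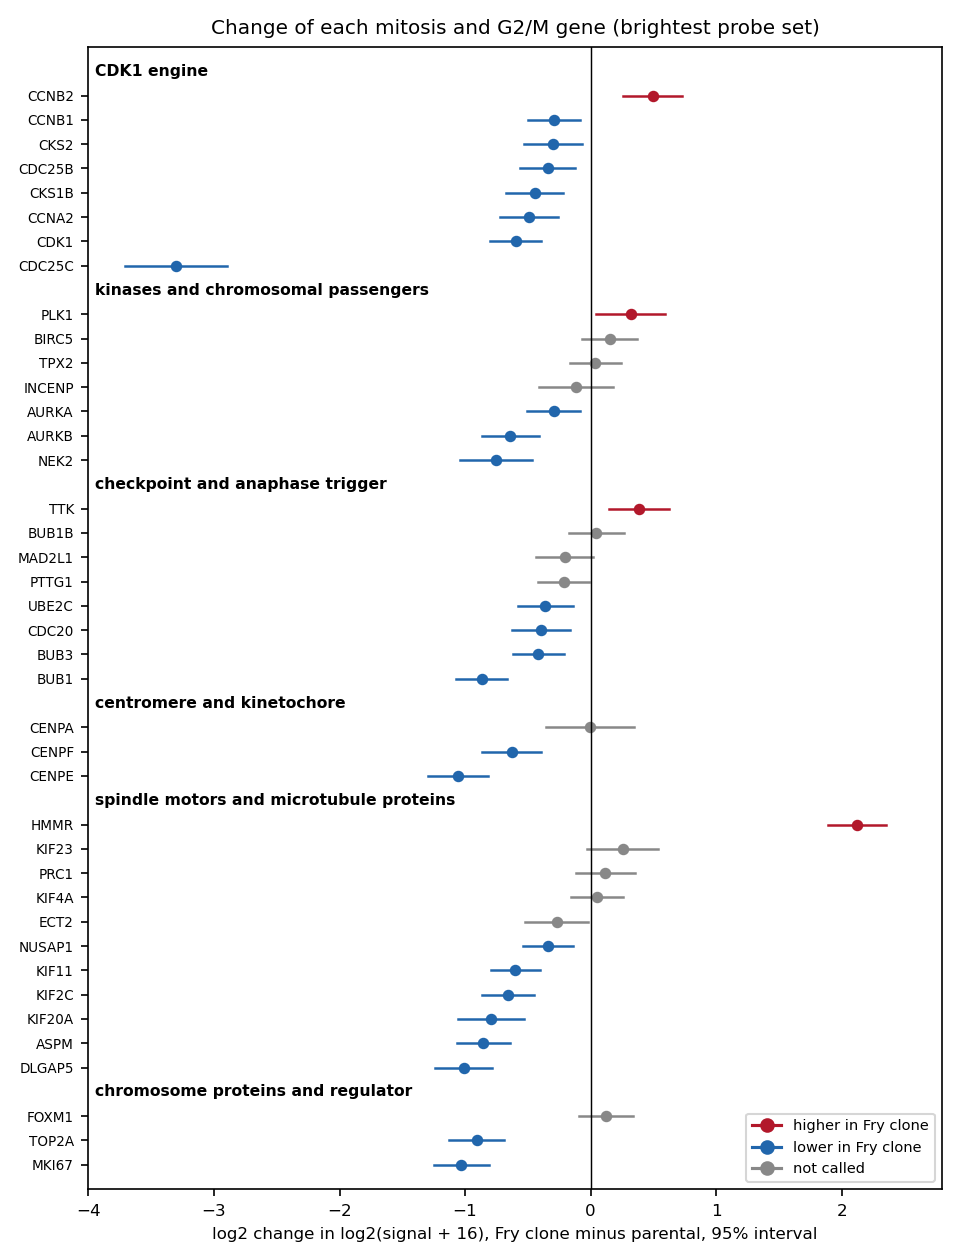
Change of each of the 40 genes on the log2(signal + 16) scale, Fry clone minus parental, for its brightest probe set, with the 95% interval from limma and genes grouped by role. Points left of 0 are lower in the Fry clone (24 called), points right of 0 are higher (4 called), and grey points (12) did not pass; CDC25C at -3.30 and HMMR at 2.12 lie farthest out.

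Promoter sequences were examined because DREAM and NF-Y act through short known letters near the start of these genes. RefSeq promoters of assembly GRCh38.p14 were at hand for 33 of the 40 genes, taking the first listed start where a gene had several (6 genes), and those of AURKA, BIRC5, BUB3, FOXM1, TPX2, TTK and UBE2C were not examined here. In the 250 bases before the start, 2 patterns were searched on both strands: the CHR as TTTGAA or TTCGAA, and the CCAAT box as CCAAT. A CHR was found in 19 of 33 member promoters (57.6%), against 14.6% of all 27305 promoters in the table. The CCAAT box was found in 28 of 33 (84.8%), against 33.0% of all promoters, and both patterns in 18 (54.5%), against 5.24%. The choice of start mattered for a few members. Counting any listed start, 21 of 33 held a CHR (63.6%) and 30 a CCAAT box (90.9%), without a like share for all promoters. These shares describe letters, and a match is not evidence of binding.

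The stretches below hold the 120 bases before the annotated start of 9 members, written on the gene's own strand. They were chosen to show CHR letters close to the start with CCAAT letters farther out, in genes that rose, fell or did not pass. Genes that fell without a CHR are set next to them. Capitals mark every CHR or CCAAT match on either strand, so ATTGG is a CCAAT box read from the other strand and TTCAAA a CHR read likewise. Neighbouring matches can overlap, as in CCAATTGG of HMMR and TTTGAATTGG of MKI67.
HMMR (chr5:163460512-163460631, plus strand): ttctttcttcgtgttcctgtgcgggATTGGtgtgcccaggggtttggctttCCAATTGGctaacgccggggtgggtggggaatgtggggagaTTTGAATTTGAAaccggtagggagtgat
CCNB2 (chr15:59105026-59105145, plus strand): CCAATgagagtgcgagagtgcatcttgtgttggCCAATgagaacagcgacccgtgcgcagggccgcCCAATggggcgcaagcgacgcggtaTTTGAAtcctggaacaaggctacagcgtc
PLK1 (chr16:23678769-23678888, plus strand): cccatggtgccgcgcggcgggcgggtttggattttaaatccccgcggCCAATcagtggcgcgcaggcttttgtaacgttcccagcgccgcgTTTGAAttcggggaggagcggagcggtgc
KIF4A (chrX:70289984-70290103, plus strand): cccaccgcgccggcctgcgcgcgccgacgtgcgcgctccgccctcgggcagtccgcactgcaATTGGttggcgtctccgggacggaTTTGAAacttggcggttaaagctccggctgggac
MKI67 (chr10:128126424-128126543, minus strand): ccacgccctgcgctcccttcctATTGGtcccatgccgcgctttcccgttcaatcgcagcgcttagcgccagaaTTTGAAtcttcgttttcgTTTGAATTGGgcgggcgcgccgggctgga
CKS1B (chr1:154974561-154974680, plus strand): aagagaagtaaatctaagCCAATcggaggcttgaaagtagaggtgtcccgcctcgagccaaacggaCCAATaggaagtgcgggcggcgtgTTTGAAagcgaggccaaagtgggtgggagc
KIF11 (chr10:92593010-92593129, plus strand): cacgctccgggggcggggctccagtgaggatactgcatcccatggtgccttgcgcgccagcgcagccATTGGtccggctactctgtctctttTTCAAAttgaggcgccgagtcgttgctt
BUB1 (chr2:110678064-110678183, minus strand): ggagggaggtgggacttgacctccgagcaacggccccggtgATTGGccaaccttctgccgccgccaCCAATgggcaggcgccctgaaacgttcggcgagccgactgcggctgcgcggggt
CENPE (chr4:103198344-103198463, minus strand): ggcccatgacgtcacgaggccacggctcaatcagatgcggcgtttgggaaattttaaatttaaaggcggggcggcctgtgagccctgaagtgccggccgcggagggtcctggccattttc

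HMMR, CCNB2 and PLK1 rose, MKI67, CKS1B, KIF11, BUB1 and CENPE fell, and KIF4A did not pass. The first base of the CHR lay 29 bases before the start in CCNB2, CKS2 and PLK1, 28 in KIF11, 30 in CKS1B and 34 in KIF4A. HMMR had 2 CHR matches in direct succession, beginning 28 and 22 bases before its start, and MKI67 had them at 47 and 29. Within the last 60 bases, a window chosen after the positions had been seen, a CHR stood in 13 of 33 member promoters (39.4%) and in 2.88% of all promoters. By call, it stood there in 3 of 3 members that rose, 6 of 9 that did not pass and 4 of 21 that fell. MKI67, CKS1B and KIF11, printed above, are among these 4, so they do not show the usual case of genes that fell. No test was made of this split. CDC25B, CDC25C, CENPE and KIF2C held neither pattern in the window examined.

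A CHR occurred in members of every call. By the first listed start, it was present in 3 of the 3 genes that rose and had a promoter in the table. The same held for 7 of 9 that did not pass and 9 of 21 that fell. No test was made of these counts, which are small. Among the other mitosis genes described further on, 23 of 92 promoters (25%) held a CHR, and among genes of DNA replication and S phase 2 of 30 did.

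**Figure D2:**
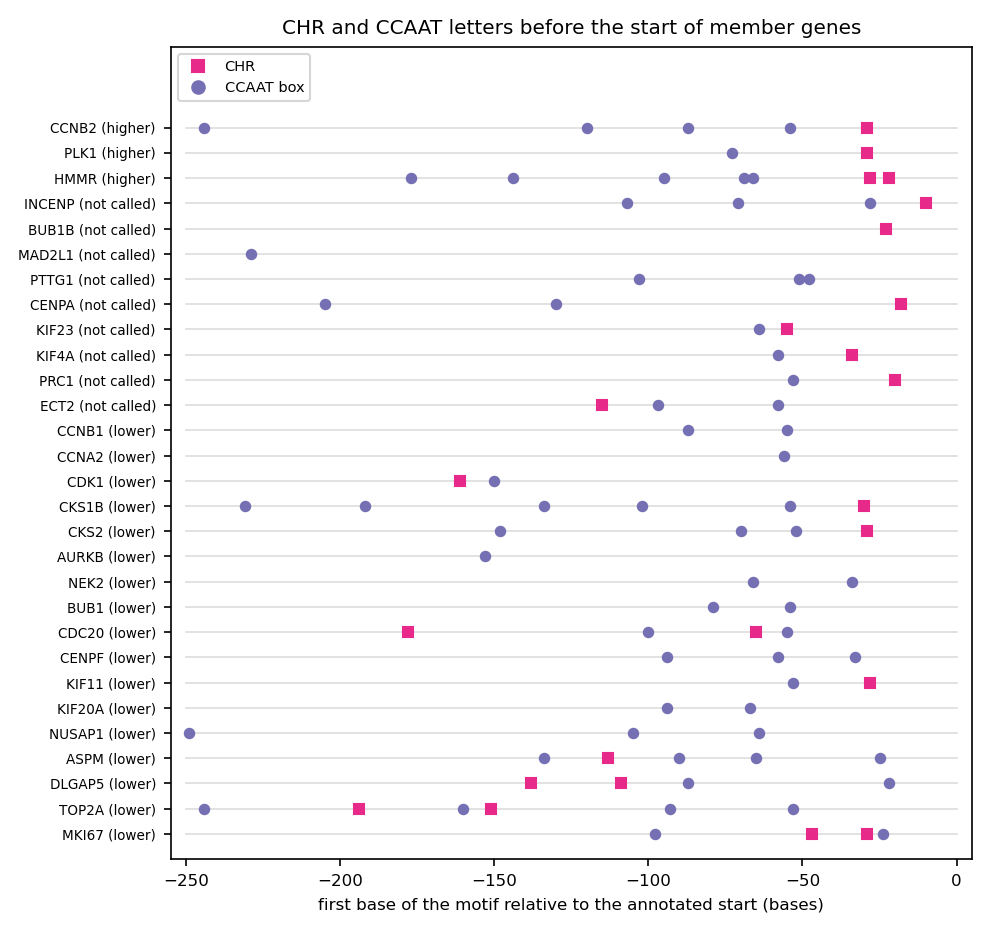
Position of CHR letters (squares) and CCAAT letters (circles) in the 250 bases before the annotated start of member genes, with the call in the Fry clone in brackets and genes that held neither pattern left out. CHR squares of the 3 genes that rose, and of KIF11, CKS1B, CKS2 and KIF4A, lie within 34 bases of the start, while those of CDK1, TOP2A, ASPM and DLGAP5 lie more than 100 bases away.

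Counts within a role are to be read beside all tested genes, of which 33.1% fell and 34.1% rose. Of the 8 genes of the CDK1 engine, 7 fell and 1 rose. CDC25C, a phosphatase that activates CDK1, fell the most of all 40 genes. Its signal was 21.5, 31.4 and 14.7 on the 3 Fry clone arrays, against 403.5, 400.6 and 284.2 on the 3 parental arrays, and the groups lay far apart. The log2 change was -3.30 ± 0.18 (SE; limma adjusted p = 3.17e-07), and the mean signal without the offset was 16.1-fold lower in the Fry clone. Its other 2 probe sets fell by less, with log2 changes of -0.75 and -0.67, so the size of the fall depended on the probe set. CDK1 itself, the kinase of this engine, read 1294, 1177 and 1186 in the Fry clone and 1821, 1789 and 1939 in parental cells, without overlap. It fell by 0.60 ± 0.09 on the log2 scale (SE; limma adjusted p = 3.09e-04), and all 4 of its probe sets were lower.

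The 2 B-type cyclins moved in opposite directions. CCNB2 (cyclin B2) read 1395, 1306 and 1403 in the Fry clone, against 966.0, 1079 and 865.9 in parental cells, so each Fry clone array was above each parental one. It rose by 0.49 ± 0.10 on the log2 scale (SE; limma adjusted p = 0.00237), and its dim second tested probe set did not pass, at 0.18. CCNB1 (cyclin B1) read 1717, 1691 and 1919 in the Fry clone, against 2143, 2246 and 2120 in parental cells. Its log2 change was -0.29 ± 0.09 (SE; limma adjusted p = 0.0207), and -0.74 for its second probe set. The CCNB1 call by the brightest probe set was lost when Fry clone replicate 1, Fry clone replicate 2 or parental replicate 2 was left out (limma adjusted p 0.0639 to 0.0723).

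Cyclin A2 (CCNA2), the partner of CDK1 and CDK2 from S phase onwards, fell as well. It averaged 1200.4 ± 126 in the Fry clone and 1688 ± 88.4 in parental cells (SD, n = 3 each), a log2 change of -0.49, and its second probe set changed by -1.12. CDC25B, another activating phosphatase, averaged 931 ± 50.5 in the Fry clone and 1184 ± 94.2 in parental cells, with a log2 change of -0.34. The small CDK-binding subunits CKS1B and CKS2 were among the brightest members. CKS1B averaged 2310.5 ± 151 in the Fry clone and 3157 ± 286 in parental cells, a log2 change of -0.45. CKS2 averaged 2899 ± 257 in the Fry clone and 3571 ± 243 in parental cells, a change of -0.30 (limma adjusted p = 0.0278). Without Fry clone replicate 1 or 2, or parental replicate 2 or 3, CKS2 no longer passed (limma adjusted p 0.0581 to 0.100).

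**Figure D3:**
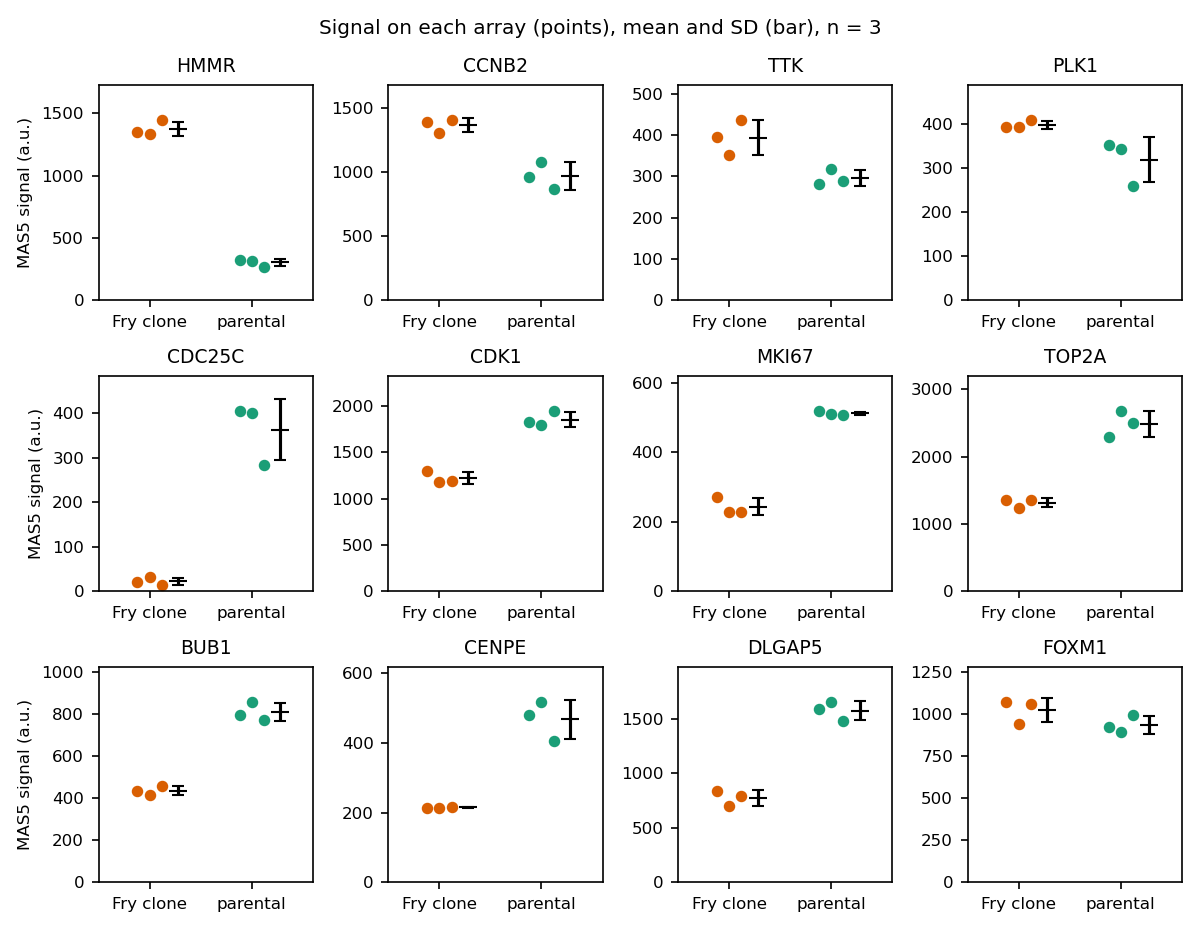
MAS5 signal of 12 members on each of the 3 Fry clone arrays (left in each panel) and 3 parental arrays (right), with the mean and SD as a bar beside the points; each vertical axis starts at 0. HMMR, CCNB2, TTK and PLK1 are higher in the Fry clone, 7 genes from CDC25C to DLGAP5 are lower, and FOXM1 overlaps between the groups.

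Among the 7 mitotic kinases and chromosomal passengers, 3 fell, 1 rose and 3 did not pass. The share that fell, 42.9% of few genes, was not far from the 33.1% of all tested genes. NEK2, a kinase of centrosome separation, read 346.6, 294.2 and 373.8 in the Fry clone, against 596.1, 652.9 and 500.3 in parental cells. It fell by 0.76 ± 0.13 on the log2 scale (SE; limma adjusted p = 6.15e-04), and its second probe set changed by -1.09. AURKB (Aurora B), the kinase of the chromosomal passenger complex, read 749.5, 661.0 and 748.9 in the Fry clone and 1175, 1192 and 1027 in parental cells. The groups did not overlap for either kinase, and AURKB fell by 0.64 ± 0.10 on the log2 scale (SE; limma adjusted p = 4.18e-04). AURKA (Aurora A), which matures centrosomes, averaged 2216 ± 126 in the Fry clone and 2723 ± 174 in parental cells, a log2 change of -0.29 (limma adjusted p = 0.0216), and 2 of its 3 probe sets fell. The AURKA call was lost without Fry clone replicate 1 or 2 or parental replicate 1 or 2 (limma adjusted p 0.0536 to 0.0766).

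PLK1 (polo-like kinase 1), which promotes mitotic entry and spindle assembly, was higher in the Fry clone by a small margin. Its signal was 394.5, 392.3 and 408.2 in the Fry clone, against 352.0, 344.4 and 260.1 in parental cells, where 1 array lay well below the other 2. The log2 change was 0.32 ± 0.12 (SE; limma adjusted p = 0.0434). Without parental replicate 3, the low array, the change was 0.19 and did not pass (adjusted p = 0.120), and leaving out any of the 3 Fry clone arrays also ended the call (adjusted p 0.0836 to 0.103).

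The other passenger proteins and TPX2 did not pass. BIRC5 (survivin) averaged 2759.9 ± 234 in the Fry clone and 2479 ± 75 in parental cells, with a log2 change of 0.15 (95% interval -0.06 to 0.37). Its 4 probe sets differed, since 1 of them fell by 0.70 and the other 3 did not pass. INCENP, the scaffold of the complex, was the dimmest member, at 15.8 ± 1.72 in the Fry clone and 18.8 ± 5.73 in parental cells, and did not pass. TPX2, which activates Aurora A on the spindle, averaged 1225 ± 61.6 in the Fry clone and 1192 ± 51 in parental cells, a log2 change of 0.04 (95% interval -0.16 to 0.24).

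Of the 8 genes of the spindle checkpoint and the anaphase trigger, 4 fell, 1 rose and 3 did not pass. BUB1, a checkpoint kinase at kinetochores, changed the most. It read 432.4, 416.5 and 457.4 in the Fry clone, against 796.7, 854.3 and 771.2 in parental cells, a log2 change of -0.87 ± 0.09 (SE; limma adjusted p = 2.68e-05). All 4 tested BUB1 probe sets fell, and its promoter, printed above, held 2 CCAAT boxes and no CHR. BUB3, the protein that carries BUB1 to kinetochores, read 1905.5, 1822 and 1987 in the Fry clone, against 2457, 2495 and 2683 in parental cells. Its log2 change was -0.41 ± 0.09 (SE; limma adjusted p = 0.00271), and all 6 of its probe sets fell, with changes from -0.25 to -1.18.

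The kinase TTK (also called MPS1), which starts checkpoint signalling, went the other way. TTK read 394.2, 351.2 and 435.3 in the Fry clone and 282.2, 318.7 and 290.1 in parental cells, so the groups did not overlap. It rose by 0.38 ± 0.11 on the log2 scale (SE; limma adjusted p = 0.0101), on its only tested probe set. BUB1B (BubR1), a subunit of the complex that holds CDC20, averaged 768 ± 59.5 in the Fry clone and 744 ± 44 in parental cells and did not pass, with a log2 change of 0.04 (95% interval -0.18 to 0.26). MAD2L1, another subunit of that complex, had a log2 change of -0.21 (limma adjusted p = 0.0986) by its brightest probe set, while its other 2 probe sets fell by 0.57 and 0.28. MAD2L1 passed when Fry clone replicate 3 was left out (limma adjusted p = 0.0465).

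CDC20, the activator of the anaphase-promoting complex, read 1001, 942.3 and 1045 in the Fry clone, against 1407, 1379.6 and 1170.4 in parental cells. It fell by 0.40 ± 0.10 on the log2 scale without overlap of the groups (SE; limma adjusted p = 0.00766). UBE2C, the ubiquitin-conjugating enzyme that works with this ligase, averaged 1766 ± 132 in the Fry clone and 2268 ± 134 in parental cells, a log2 change of -0.36. PTTG1 (securin), the separase inhibitor that the ligase destroys, averaged 2364 ± 126 in the Fry clone and 2746 ± 114 in parental cells. Its groups were apart, yet its log2 change of -0.22 did not pass (limma adjusted p = 0.0621).

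At the centromere, 2 of 3 members fell. CENPE, a kinetochore motor that moves chromosomes to the spindle equator, read 214.5, 213.6 and 217.6 in the Fry clone and 480.1, 515.9 and 405.9 in parental cells. It fell by 1.06 ± 0.10 on the log2 scale (SE; limma adjusted p = 1.96e-05), a 2.17-fold lower mean signal in the Fry clone. CENPF, a large protein of the outer kinetochore, read 627.2, 554.5 and 510.7 in the Fry clone, against 846.3, 949.8 and 842.7 in parental cells, and changed by -0.63 ± 0.11 (SE; limma adjusted p = 6.12e-04). Its other 2 tested probe sets did not pass, at -0.07 and -0.35, so the CENPF call rested on 1 probe set. CENPA, the histone H3 variant that marks the centromere, read 179.6, 183.3 and 182.5 in the Fry clone, within the parental values of 205.9, 216.8 and 134.4. Its log2 change was 0.00 with a 95% interval of -0.35 to 0.35.

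Of the 11 spindle motors and microtubule proteins, 6 fell, 1 rose and 4 did not pass. HMMR, a spindle-pole and hyaluronan-binding protein, gave the only large rise among the 40 genes. It read 1352, 1339 and 1444 in the Fry clone, against 326.4, 319.7 and 269.5 in parental cells, a 4.52-fold higher mean signal. The log2 change was 2.12 ± 0.10 (SE; limma adjusted p = 1.28e-07), and its second probe set rose by 2.03. HMMR rose while DLGAP5 and ASPM, which also act at the spindle, fell.

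DLGAP5, which stabilises kinetochore fibres, read 837.9, 697.2 and 788.0 in the Fry clone, against 1591, 1649 and 1484 in parental cells. It fell by 1.01 ± 0.10 on the log2 scale (SE; limma adjusted p = 1.98e-05), a 2.03-fold lower mean signal. ASPM, a spindle-pole protein, read 572.0, 546.5 and 526.0 in the Fry clone and 1018, 1074 and 925.3 in parental cells. Its log2 change was -0.85 ± 0.09 (SE; limma adjusted p = 3.95e-05), and its other 2 probe sets also fell, the farther by 1.32. For both genes every Fry clone array was below every parental array.

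Of the 5 motors of the kinesin family in this group, 3 fell and 2 did not pass. KIF11 (Eg5), which pushes spindle poles apart, averaged 1097 ± 40.4 in the Fry clone and 1669 ± 48.8 in parental cells, a log2 change of -0.60. KIF20A, a motor of cytokinesis, averaged 347 ± 18.7 in the Fry clone and 615 ± 84.3 in parental cells, a change of -0.79. KIF2C (MCAK), which depolymerises microtubules at centromeres, averaged 315 ± 8.39 in the Fry clone and 506 ± 38.9 in parental cells, a change of -0.66 that its second probe set shared, at -0.78. These 3 motors passed with adjusted p-values from limma of 2.06e-04 to 2.58e-04. KIF4A, a chromosome-bound motor, averaged 1299 ± 55.9 in the Fry clone and 1253 ± 83.1 in parental cells and did not pass, at 0.05 (95% interval -0.16 to 0.26). KIF23, a subunit of the centralspindlin complex, had a change of 0.26 that did not pass (limma adjusted p = 0.103) and that passed at 0.37 without parental replicate 1 (limma adjusted p = 0.0292).

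PRC1, which bundles the microtubules of the central spindle and works with KIF4A, averaged 929 ± 8.12 in the Fry clone and 858 ± 98.9 in parental cells, a log2 change of 0.12 that did not pass. NUSAP1, a microtubule-binding protein, averaged 1665 ± 19.1 in the Fry clone and 2114 ± 124 in parental cells, a change of -0.34, with -0.95 for its second probe set. ECT2, the exchange factor that starts the cleavage furrow, had a change of -0.27 (limma adjusted p = 0.0596) by its brightest probe set, while its other 2 fell by 0.72 and 0.66. Without Fry clone replicate 3, ECT2 passed (limma adjusted p = 0.0308).

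Both chromosome proteins fell, and FOXM1 did not pass. MKI67, the source of the Ki-67 antigen that coats mitotic chromosomes, read 271.8, 228.4 and 229.3 in the Fry clone, against 517.4, 509.2 and 508.4 in parental cells. It fell by 1.03 ± 0.10 on the log2 scale (SE; limma adjusted p = 1.35e-05), a 2.10-fold lower mean signal, and all 4 of its probe sets fell. TOP2A, the topoisomerase that untangles sister chromatids, read 1353, 1239 and 1362 in the Fry clone, against 2294.5, 2672 and 2501 in parental cells. TOP2A fell by 0.91 ± 0.10 on the log2 scale (SE; limma adjusted p = 3.05e-05), and so did its other 2 probe sets. FOXM1, the transcription factor that activates many G2/M genes, read 1070, 940.4 and 1061 in the Fry clone, which overlapped with 923.2, 893.0 and 997.6 in parental cells. Its log2 change was 0.12 ± 0.10 (SE; limma adjusted p = 0.290, 95% interval -0.09 to 0.34).

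Where a member had several probe sets, the calls never opposed each other. Of the 80 tested member probe sets, 56 fell, 5 rose and 19 did not pass, with a median log2 change of -0.53. The test called 32.3% of all tested probe sets lower and 30.3% higher, and their median was -0.02. Among the 21 members with at least 2 tested probe sets, all of them fell in 13 and all of them rose in 1 (HMMR). In the other 7 members some probe sets passed and some did not, or none passed, and no member had calls in both directions. Like counts over all genes with several tested probe sets were not made, so this agreement cannot be called particular to the members. The remaining 19 members rested on 1 tested probe set.

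**Figure D4:**
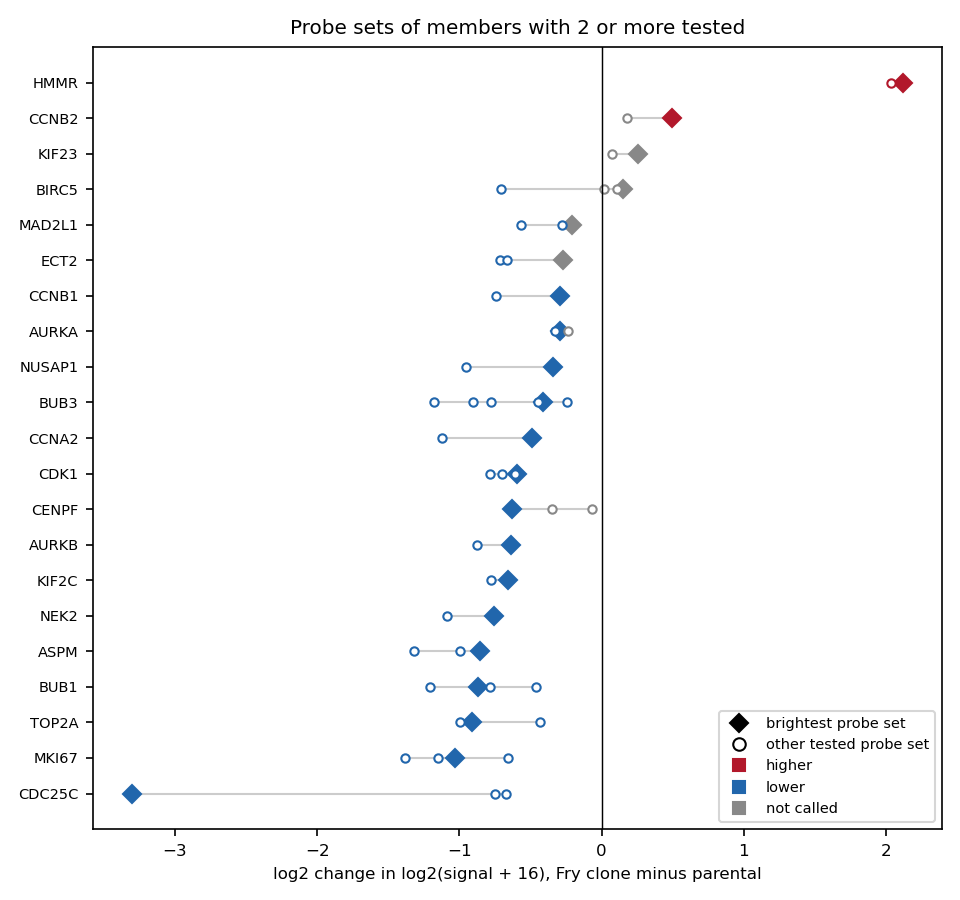
Log2 change of every tested probe set for the 21 members with at least 2, Fry clone minus parental, with filled diamonds for the brightest probe set that stands for the gene and open circles for the others; red was called higher, blue lower and grey not called. In no member do red and blue points occur together, and the dimmer probe sets of CCNA2, NUSAP1 and ECT2 lie well left of the brightest.

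A wider set of 104 further mitosis genes, of which 101 were tested, was tested in the same way. Of these, 57 fell (56.4%), 13 rose (12.9%) and 31 did not pass, with a median log2 change of -0.38. Over all tested genes 33.1% fell and 34.1% rose, and the counts of the short lists below are to be read beside these shares. At the kinetochore 9 of 13 outer genes fell and 1 rose, with NUF2 at -1.08 and SKA3 at -1.11, and in the inner centromere network 7 of 15 fell and 4 rose, with CENPC at -1.04. Of 14 subunits and partners of the anaphase-promoting complex 9 fell and 1 rose. Its subunits ANAPC4 and CDC27 changed by -0.95 and -0.90, while ANAPC13 rose by 1.05. Among 16 spindle and centrosome genes 11 fell and 5 did not pass, with the motor KIF15 at -1.27 and the centriole kinase PLK4 at -0.81.

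The lists of chromosome structure and cytokinesis held fewer calls. Of 11 cohesin genes 5 fell and 6 did not pass, with the ring subunit SMC3 at -1.12, and of 8 condensin genes 4 fell and 1 rose, with NCAPG at -0.55 and NCAPH2 at 0.78. Of 6 cytokinesis genes 3 fell and 3 did not pass, with KIF20B at -0.83. In the list of MuvB, DREAM and B-MYB subunits 5 of 10 fell and 4 rose, among them the DREAM pocket protein RBL2 at 0.98, MYBL2 (B-MYB) at 0.76 and the CHR-binding subunit LIN54 at -0.91. Among 8 brakes on CDK1, 4 fell and 2 rose. SFN (14-3-3 sigma), which keeps CDK1 in the cytoplasm and is an epithelial gene, averaged 54.6 ± 4.1 in the Fry clone and 1467 ± 57 in parental cells, a log2 change of -4.39. The CDK inhibitors CDKN1B and CDKN1A changed by -0.84 and -0.81.

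The 34 genes of DNA replication and S phase were set beside them. Of these, 13 fell (38.2%), 8 rose (23.5%) and 13 did not pass, with a median log2 change of -0.12. Over all tested genes 33.1% fell and 34.1% rose, so the share that fell was near that background. The replication genes POLE2 and GMNN changed by -0.98 and -0.92, and GINS3 by 1.09. Whether the mitotic and S-phase genes differed from each other was not tested, since the lists were chosen with earlier results known.

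**Figure D5:**
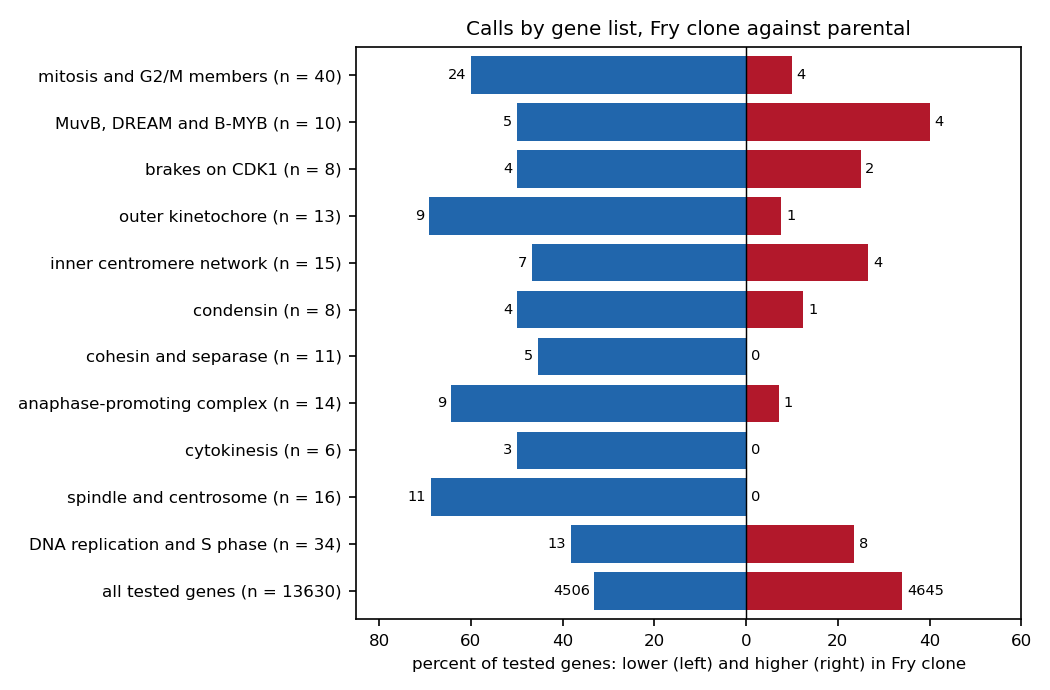
Percent of tested genes called lower (left, blue) and higher (right, red) in the Fry clone, with the number called beside each bar, for the 40 members, 9 wider mitosis lists, the S-phase list and all tested genes. The members (24 lower, 4 higher) and most mitosis lists lean left, while all tested genes divide almost evenly (4506 lower, 4645 higher).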

How the data were processed

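Total RNA of 3 Fry clone and 3 parental samples was amplified, labelled with biotin and hybridised to 1 array each, per the labels. The deposited values are linear signal intensity values. Per the submitters' processing notes, the authors used MAS5. No MAS5 version or target mean is given in the sources used here. MAS5 subtracts mismatch-probe signal, so dim values are unstable. Signals were transformed to log2(signal + 16), which understates changes of dim genes, with no further normalization. Probe sets with a mean at or above the 40th percentile (a signal of 5.87) were tested, 32771 of 54613. Fry clone and parental samples were compared by limma (version 3.58.1, lmFit and eBayes, under R 4.3.3) without covariates, with Benjamini-Hochberg adjustment over all tested probe sets and a threshold of 0.05, and the fit was tested on simulated data. A gene was represented by its brightest probe set naming 1 gene in GEO's platform annotation. The number of arrays limits the precision. The probe set that stands for each member read above the highest unspiked bacterial control on every array.

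The members and lists were chosen with earlier results of these data known, so no set test was run. All 40 members are named. Values on every array are given for the 3 largest changes of each role, for members that rose and, beyond that rule, for CCNB1, which is set beside CCNB2. From other lists up to 3 genes with the smallest p are named. The marker DCT was not analysed here. Alternatives changed the offset, filter, normalization, variance model, probe sets used, pairing and replicates. Promoters are from RefSeq. Python 3.11.15 and matplotlib 3.10.9 served for tables and plots.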

Additional observations from a re-analysis of the deposited data

How the results depend on the processing

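The median log2 change of the members stayed below 0 in every alternative, and no call changed direction. Without probe sets of the types that may bind several transcripts, 10 members could not be measured, and another probe set stood for some others. The median was then -0.54, 29 member probe sets fell and 8 of the wider mitosis genes rose. Fewer probe sets were tested in this setting, and what moved these values was not tested. The other alternatives gave 21 to 27 members that fell. Leaving out each replicate in turn gave 21 to 26 that fell, 3 to 5 that rose and a median of -0.32 to -0.38. HMMR and TTK kept their call in every setting that tested them, as did 20 of 24 that fell and 8 of 12 that did not pass. PLK1 was also lost with an offset of 1 or no filter, CKS2 with an offset of 1, CCNB2 with the median over probe sets, and CENPF with that median or without cross-hybridising types. Calls gained were ECT2, MAD2L1 and PTTG1 in several settings, and KIF23 in 1. The cause was not tested. Replicate numbers are not said to pair samples, so no pairing was assumed. The deviations of same-numbered samples correlated at 0.07, 0.07 and 0.19, against -0.13 to 0.08 for differently numbered samples, so a small shared effect of the number remains possible. With the replicate number as a block 25 members fell and 4 rose, against 24 and 4 without it. Signals near background limit what can be said of INCENP and of the dim CDC25C values in the Fry clone.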

Other observations

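Among the 21 members with several tested probe sets, the log2 change of the brightest was less negative than the median of the others in 16 (76.2%), against 3725 of 7241 such genes on the whole array (51.4%). The median difference, brightest minus others, was 0.19 in the members and 0.01 over all such genes. Less negative is not less changed: HMMR, CCNB2, KIF23 and BIRC5 are among the 16 and had larger changes by their brightest probe set. So did the other 5 members, AURKA, BUB1, CDC25C, CENPF and TOP2A, against the median of their other probe sets. Among genes called lower by their brightest probe set, where the call itself favours a low value, the count was 10 of 15 members (66.7%), against 673 of 2555 genes (26.3%). CCNB1, CCNA2, NUSAP1 and NEK2 were among these 10. With the median over probe sets the members' median log2 change was -0.38, with 25 lower and 3 higher. By the brightest it was -0.34, with 24 lower and 4 higher. This setting could move little, since 19 members had 1 tested probe set and the median over probe sets includes the brightest. Over all 80 tested member probe sets the median was -0.53. Why the brightest probe sets were less negative was not tested.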
